A study of Sus scrofa domesticus with 150 samples.

Results

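This account follows 48 cell cycle and mitosis genes, listed by symbol, through the healing of porcine skin wounds. The count table held 30461 genes, and 50 of its rows carried 47 of the 48 symbols. CCNA2 was not analysed here. A row was taken when its name, or the gene symbol in its protein match where no name was given, was on the list, with 29 symbols found by name and 18 by protein match. PRC1, PCNA and RRM2 each had a second row, and each symbol was represented by its row with the higher total count. Of the 50 rows, 48 passed the filter on low counts and were tested, namely the 47 representative rows and the second row of PRC1.

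The samples came from 6 female Yorkshire-mix pigs with full-thickness circular excisions on the back, covered by Telfa Clear and Tegaderm dressings. No group was given any further treatment, apart from the antibiotic ointment put on the biopsy sites. Day 0 was the whole skin excised at wounding, 6 samples with no edge or center. Each of the first 10 sampled days, up to day 13, had 6 edge and 6 center biopsies, from 2 wounds in each of 3 animals, and each of the last 4, from day 15 to day 21, had 3 of each, from 1 wound per animal, which makes 150 samples in 29 states. Wounds were counted as replicates, so the p-values also rest on wounds that share an animal. Days 1, 3, 5, 7, 11, 15 and 21 were sampled in animals 1 to 3, and days 2, 4, 6, 9, 13, 16 and 19 in animals 4 to 6, so neighbouring days differ in animals too. A biopsied wound was not sampled again, so each day is a different set of wounds.

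A dividing cell first licenses its replication origins by loading the MCM helicase, then copies its DNA with PCNA as the sliding clamp and with nucleotides made by ribonucleotide reductase and thymidylate synthase. Cyclin E with its kinase drives the entry into DNA synthesis, and cyclin B with CDK1 drives the entry into mitosis. The mitotic kinases, centromere proteins, spindle motors and the anaphase-promoting complex then separate the chromosomes. In skin wounds, keratinocytes proliferate behind the migrating epidermal front at the edge, while fibroblasts, endothelial cells and immune cells proliferate in the granulation tissue that fills the center.

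Total counts per sample ran from 13133379 to 24895572, so that 3 counts, taken as the limit of detection, were 0.121 to 0.228 CPM, which are counts scaled to a common library total. Levels are given as CPM, or as log2(1 + CPM) where they are averaged, and levels of different genes are compared only in the authors' FPKM, which divides by gene length. In bulk tissue, fewer cells of a dividing type and less RNA per cell cannot be told apart. The location labels were checked against 9 basal keratinocyte markers. Their mean level was 9.84 ± 0.11 (SD, n = 6) at the edge and 5.34 ± 1.71 (n = 6) in the center on day 1, and 9.71 ± 0.20 (n = 6) in day 0 skin. Of the 6 day 1 center samples, replicate 5 (animal 3) stood apart in these markers, at 8.71 against 4.08 to 5.41 in the other 5. On day 3 the labels and these markers did not separate, with 0 of the 9 called between edge and center by edgeR. On each of days 1, 2, 4 and 5, 8 were higher at the edge, and on day 1 the other 1 was lower. Later, 8 were higher at the edge on days 6, 7 and 9, 1 on day 11 and 7 on day 13. None was called on days 15, 16, 19 and 21, so these markers did not separate the labels there either. The library labelled edge replicate 6 of day 3 had a marker level of 4.68 against 8.61 to 9.92 in the other 5, and the library labelled center replicate 4 of that day had 9.37 against 3.10 to 6.58. Likewise the library labelled center replicate 1 of day 11 had 9.77 against 3.71 to 4.86. The mean of 9 neutrophil markers was 1.58 in day 0 skin, 6.18 at the edge and 5.98 in the center on day 1. These 9 did not move as one between the locations. By edgeR 3 were higher at the edge on day 1 and 0 lower, while their median log2 difference was -0.47. In all, 8 libraries lay apart from their replicates across all genes, and without them 1 count of those given below moved by more than 1.5 times, that of center day 19.

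The mean level over the 47 genes was above that of day 0 skin at the wound edge and below it in the wound center on day 1, and reached about the same height in both places between days 4 and 6. In day 0 skin it was 3.97 ± 0.10 (SD, n = 6). At the edge it was 5.14 ± 0.25 on day 1 and stayed between 5.19 and 5.48 on days 2 to 6, with its highest value of 5.48 ± 0.19 on day 6. In the center it was 3.19 ± 0.65 on day 1, 4.48 ± 0.74 on day 2 and 5.15 ± 0.31 on day 3, with its highest value of 5.59 ± 0.33 on day 4. All 6 edge samples of day 1, from 4.83 to 5.47, were above every day 0 sample, from 3.83 to 4.09. On that day 5 of the 6 center samples, from 2.43 to 3.51, were below every day 0 sample, and only replicate 5, the sample with high keratinocyte markers, was above them at 4.27. The part of those keratinocytes in its level was not tested.

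**Figure D1:**
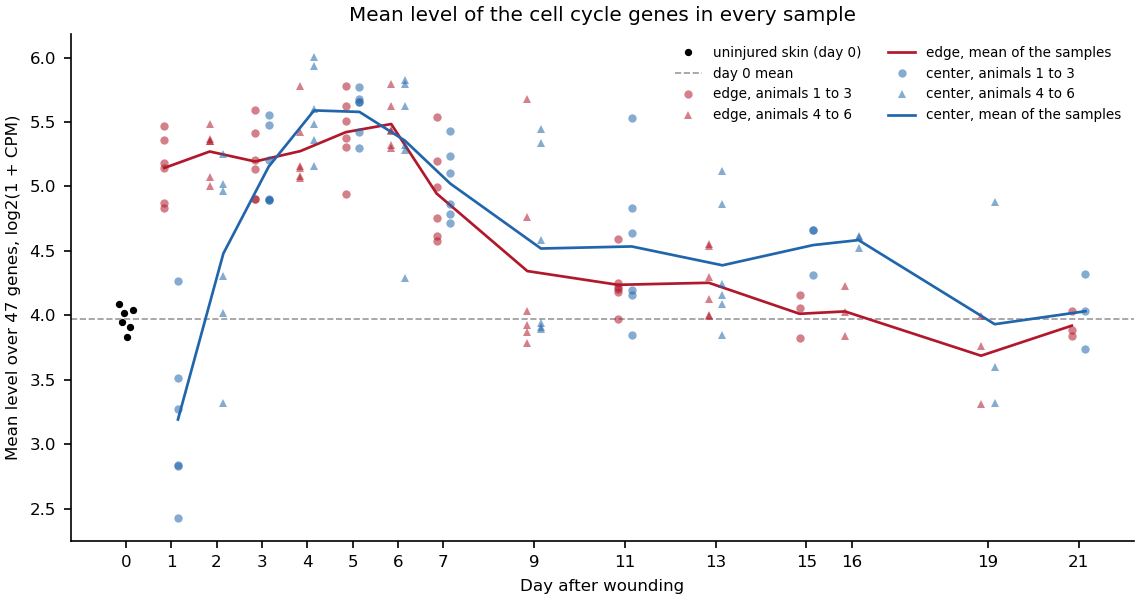
Mean of log2(1 + CPM) over the 47 cell cycle genes (vertical axis) in each of the 150 samples by day after wounding (horizontal axis), as circles for animals 1 to 3 and triangles for animals 4 to 6, with lines through the means of edge (red) and center (blue) and a dashed line at the day 0 mean. The center starts at 3.19 on day 1, below the day 0 mean of 3.97, and meets the edge by day 3.

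After day 6 the mean level was lower at both locations, and that of the center stayed above day 0 for longer. The edge was at 4.95 ± 0.37 on day 7, 4.34 ± 0.74 on day 9 and 4.01 ± 0.17 (n = 3) on day 15, which is within 1 SD of day 0. The center was at 4.52 ± 0.72 on day 9, 4.55 ± 0.20 (n = 3) on day 15 and 4.58 ± 0.05 (n = 3) on day 16. By day 21 the edge, at 3.92 ± 0.10, and the center, at 4.03 ± 0.29 (n = 3 each), were both within 1 SD of day 0. With the 29 states put in order of level, from center day 1 to center day 4, each differed from the next by less than the larger of their SDs.

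Gene by gene, each wound state was compared with day 0 by edgeR's quasi-likelihood test on all 150 samples, with Benjamini-Hochberg adjustment over 17916 genes and an adjusted p below 0.05 as the threshold. At the edge, 40 of the 48 rows were above day 0 on day 1, against 21.7% of all genes tested, and 1 was below, against 19.1%. Over the following days, from day 2 to day 7, the rows above day 0 numbered 43 (18.9% of all genes), 42 (25.4%), 42 (22.9%), 45 (24.6%), 44 (26.8%) and 40 (24.5%) in that order. The median log2 fold change of the rows was 1.14 on day 1 and 1.59 on day 6, where the medians of all genes were -0.07 and -0.02. Fewer rows were above day 0 later, with 22 by day 9 (22.6%), 9 by day 11 (19%) and 14 by day 13 (23%, with 17.4% lower), the last 2 near the share of all genes. On day 15 (7.61% of all genes higher, 1.98% lower) and day 21 (13% higher, 6.63% lower) edgeR called no row in either direction, with 1 and 0 rows at an unadjusted p below 0.05, and DESeq2 also called 0 on both days. On day 16 (12.8% higher, 6.93% lower) and day 19 (16.6% higher) CCNE1 was the single row above, which is under the share of all genes.

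**Figure D2:**
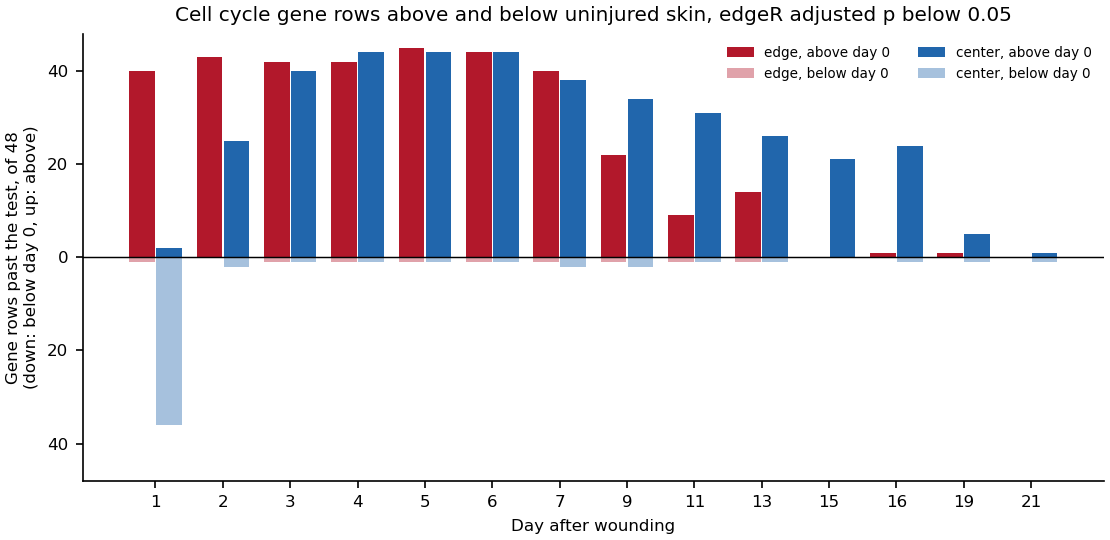
Number of the 48 tested rows of cell cycle genes above (upward bars) and below (downward bars) day 0 skin on each day (horizontal axis), at the edge (red) and in the center (blue), by edgeR's adjusted p. On day 1 the edge has 40 rows above and the center 36 rows below day 0, and on days 15 and 16 the center has 21 and 24 rows above where the edge has 0 and 1.

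In the center the first day went the other way. There 36 of the 48 rows were below day 0 on day 1, against 31% of all genes tested, and 2 were above (29.7%). From day 2 to day 7 the rows above day 0 numbered 25 (33.3% of all genes), 40 (31.1%), 44 (31.7%), 44 (31.9%), 44 (32%) and 38 (31%) in that order. There were 34 by day 9 (30.8%), 31 by day 11 (28.9%, with 29.6% lower), 26 by day 13 (28.3%), 21 by day 15 (23.3%) and 24 by day 16 (24.9%). Day 19 had 5 (19.7%), namely AURKA, CCNE1, E2F1, MELK and RRM2, and 3 without the libraries that lay apart. Day 21 had CCNE1 alone (19.2%). On both of these days the members above day 0 were under the share of all genes. The day 1 counts were 2 above and 36 below without replicate 5.

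The counts of the middle days varied with the animals and replicates in the fit. On day 9 both wounds of animal 5 were high at edge and center, with mean levels of 4.77 and 5.68 at the edge against 3.78 to 4.04 in animals 4 and 6, and 5.44 and 5.34 in the center against 3.90 to 4.58. In these fits a replicate number was left out of every state at once, day 0 included. The part of a single wound in the counts was therefore not tested. Without replicate 4, on day 9 1 of those wounds, 4 rows were above day 0 at the edge and 22 in the center. Without replicate 3, on day 9 the other, there were 18 and 20. With the animal as a block, the counts above day 0 were 9 on day 9, 3 on day 11 and 8 on day 13 at the edge, and 15 on day 13 and 1 on day 19 in the center. The shares of all genes in these refits are not given here. The edge day 9 counts of 4 and 9 were under the share given above for that day, which is from the fit of all samples without a block. Without replicate 3 the center had 13 rows above day 0 by day 13 and 19 by day 11, and without replicate 4 or replicate 6 it had 14 by day 2. At the edge the day 7 count was 26 without replicate 2, and the day 13 count was 7 to 9 without replicate 1, 2, 4 or 6. The day 19 center count was 0 without replicate 2, 2 without replicate 6 and 9 without replicate 3.

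Per length, the order of the genes changed with the state. In day 0 skin the highest mean FPKM were those of NUSAP1 at 13.8, TOP2A at 9.90 and TYMS at 9.88, and the lowest that of CDC6 at 0.342. In the center on day 1 the highest were PCNA at 10.4, MCM2 at 10.3 and MCM4 at 10.1, and the lowest FOXM1 at 0.241. At the edge on day 6 and in the center on day 4 the highest were CCNB1, UBE2C, which attaches the ubiquitin that ends mitosis, and TOP2A, at 27.4 to 37.1, and the lowest CDC6, which loads the MCM helicase, at 1.03 and 1.09.

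The origin licensing and replication genes were above day 0 at the edge by the first day. Of the 10 genes, 9 were above day 0 at the edge on day 1 with a median log2 fold change of 1.36, and 8 on day 6. For the edge on these days, the shares of all genes are given above with the daily counts. The center had 2 above and 2 below day 0 on day 1, where 29.7% of all genes were above and 31% below, and 9 above by day 4 (31.7%).

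PCNA, the sliding clamp of the replicative polymerases, lies on contig LUXX01067814.1 from 147433 to 207004 on the minus strand, in coordinates of a build not given in the sources used here. Its CPM in day 0 skin was 48.7 at the lowest, 58.5 at the median and 69.3 at the highest. On day 1 the same values at the edge were 127, 201 and 231. No edge sample of day 1 overlapped day 0, and the log2 fold change was 1.60 ± 0.18 (SE, n = 6 against 6, edgeR adjusted p = 4.51e-12). This SE and those that follow come from the test statistic, with the spread of all samples in the fit. On day 6 the values were 96.5, 111 and 149, still clear of day 0, with a log2 fold change of 0.96 ± 0.18 (edgeR adjusted p = 4.09e-06). The day 1 center values were 56.8, 85.6 and 98.6, which overlaps day 0, and the log2 fold change of 0.30 ± 0.18 did not pass (edgeR adjusted p = 0.149). On day 4 the center had 104, 113 and 131, all above day 0, and on day 21 the edge had 46.2, 52.5 and 60 and the center 43.5, 48.9 and 64.7, back within or below its range.

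MCM5, a subunit of the MCM2 to MCM7 helicase, had 20.2, 24.1 and 34.1 CPM (lowest, median, highest) in day 0 skin. On day 1 it had 59.9, 73.8 and 83.2 at the edge and in the center 25.0, 37.1 and 76.8. So the edge was clear of day 0 and the center overlapped it, with log2 fold changes of 1.42 ± 0.25 (edgeR adjusted p = 1.62e-06) and 0.69 ± 0.25 (edgeR adjusted p = 0.0119). By day 4 in the center it reached 71.8, 81.0 and 134, a log2 fold change of 1.78 ± 0.25 (edgeR adjusted p = 1.05e-09). By day 21 both locations overlapped day 0 again, with medians of 24.3 at the edge and 25.1 in the center. MCM5 and MCM6, another subunit of that helicase, were the 2 rows above day 0 in the center on day 1, MCM6 by 0.61 ± 0.18 on the log2 scale (edgeR adjusted p = 0.00241). Both calls were lost without replicate 6, where no row was above day 0.

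The other helicase subunits in the list, MCM2, MCM3 and MCM4, had log2 fold changes of 0.17 to 0.24 in the center on day 1, none past the test. CDC45, which with GINS completes the active helicase, was among the 2 genes of this group below day 0 there, at -0.83. GINS2, the other, was the exception of the group. Its CPM was 18.2, 22.0 and 26.7 in day 0 skin, 16.1, 21.2 and 25.3 at the edge on day 6 and 18.1, 23.0 and 25.4 in the center on day 4. The groups overlapped throughout, and GINS2 was above day 0 in none of the 28 wound states and below it in the center on days 1, 7 and 9. CDC45 shares its locus with CLDN5 on the opposite strand, and the strand setting of the counting is not given in the sources used here, so their counts are uncertain. Another gene overlaps 18 of the 47 representative rows of the list, 3 of them on the same strand.

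RRM2, TYMS and UHRF1 serve nucleotide supply and the copying of DNA methylation. RRM2, the small subunit of ribonucleotide reductase, had 24.7, 31.5 and 36.2 CPM in day 0 skin and 114, 137 and 155 at the edge on day 1. The center on day 1 had 6.39, 10.8 and 44.9. The edge samples were all higher than day 0 (log2 fold change 2.00 ± 0.35, edgeR adjusted p = 1.13e-06), and the center samples lower but for 1 (-1.11 ± 0.34, edgeR adjusted p = 0.00327). By day 4 the center had 102, 156 and 232 CPM, all above day 0, with a log2 fold change of 2.35 ± 0.35 (edgeR adjusted p = 5.47e-09). The edge on day 6 had 130, 164 and 209, and on day 21 the medians were 38.3 at the edge and 35 in the center.

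UHRF1, which guides maintenance DNA methylation at the fork, had 18.6, 21.8 and 23.1 CPM in day 0 skin. It had 43.7, 55 and 78.4 at the edge on day 1 and 7.56, 21.1 and 46.1 in the center. Only the edge was clear of day 0, with a log2 fold change of 1.35 ± 0.32 (edgeR adjusted p = 0.00026), against -0.01 ± 0.31 in the center (edgeR adjusted p = 0.979). It had 27.1, 49 and 104 in the center on day 4, clear of day 0, and medians of 15.9 at the edge and 15.4 in the center on day 21. TYMS, thymidylate synthase, was above day 0 on 4 days at the edge and on none in the center. Its log2 fold change was 1.26 ± 0.29 at the edge on day 1 (edgeR adjusted p = 0.000191) and 0.04 ± 0.29 in the center on day 4 (edgeR adjusted p = 0.902).

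Of the transcription factors, E2F1 turns on genes of DNA synthesis and FOXM1 genes of mitosis. E2F1 had 9.34, 11.0 and 17.3 CPM in day 0 skin, 19.9, 27.2 and 40.3 at the edge on day 1, and 3.5, 9.16 and 16.2 in the center on day 1. FOXM1 was among the lowest genes per length, at 0.92 FPKM in day 0 skin, and had 2.47, 2.84 and 3.63 CPM there, 3.57, 6.35 and 8.26 at the edge on day 1, and 0.19, 0.547 and 2.86 in the center on day 1. For E2F1 the edge was clear of day 0 and the center overlapped it. For FOXM1 both the edge and the center overlapped day 0. FOXM1 fell in the center on day 1 by 1.87 ± 0.35 on the log2 scale (edgeR adjusted p = 2.11e-06) and E2F1 by 0.62 ± 0.25 (edgeR adjusted p = 0.0275). On day 4 in the center E2F1 was above day 0 by 1.53 ± 0.25 and FOXM1 by 1.06 ± 0.33 (edgeR adjusted p = 8.11e-08 and 0.00369). On day 6 at the edge E2F1 had 14.8, 31.9 and 34.8 CPM and FOXM1 had 5.17, 7.45 and 8, and on day 21 the center medians were 14.5 and 2.77.

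**Figure D3:**
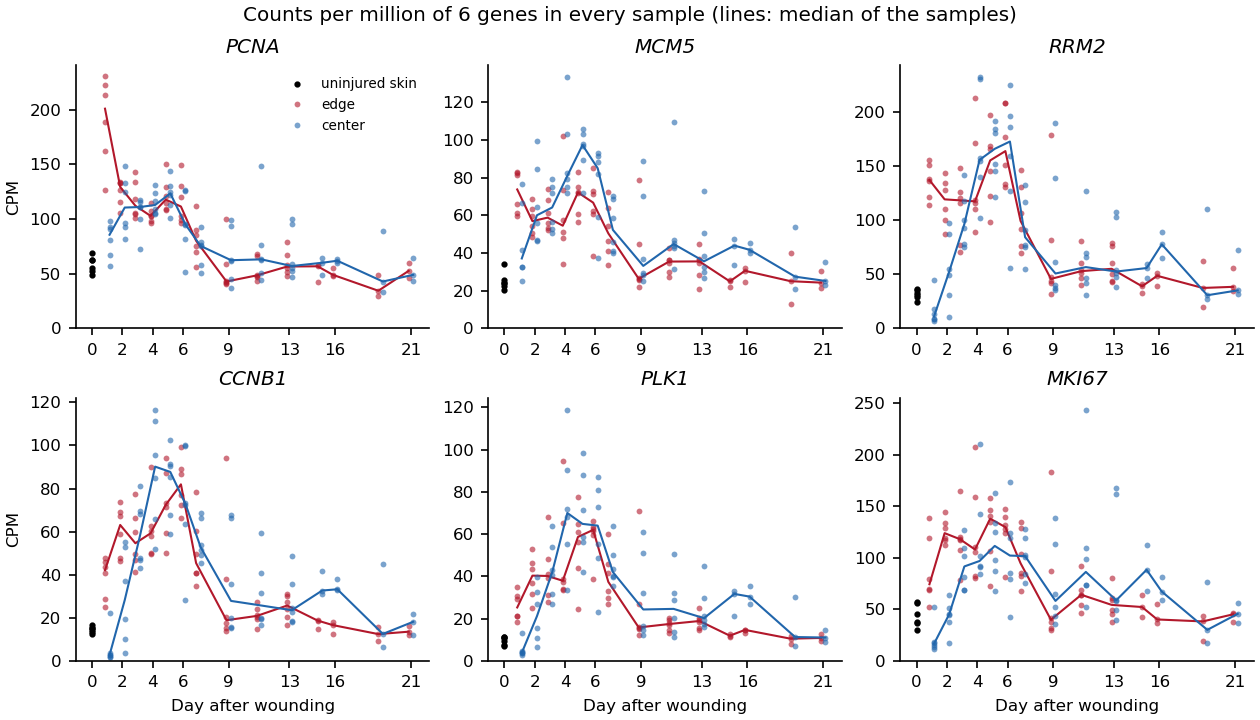
CPM (vertical axes, linear, from 0) of PCNA, MCM5, RRM2, CCNB1, PLK1 and MKI67 in every sample by day after wounding (horizontal axes), with day 0 skin in black, edge in red, center in blue and lines through the medians. PCNA is highest at the edge on day 1 with a median of 201 CPM, whereas CCNB1 and PLK1 are highest on days 4 to 6.

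All 6 measured genes of the cyclin, CDK and CDK phosphatase group were above day 0 at the edge on days 1 to 6 and in the center on days 3 to 6. For comparison, the shares of all genes above day 0 in those states are given above with the daily counts. CCNB1, cyclin B1, had 12.7, 14.6 and 16.5 CPM in day 0 skin. It had 24.9, 42.1 and 47.6 at the edge on day 1 and 66.5, 82.0 and 99.1 on day 6. In the center it went from 1.60, 2.72 and 22.4 on day 1 to 51.9, 90.2 and 116 on day 4. The edge groups and the day 4 center group were clear of day 0, and on day 1 the center was below it but for 1 sample, replicate 5. On day 21 the medians were 13.5 at the edge and 18.1 in the center. The log2 fold changes were 1.29 ± 0.37 and 2.45 ± 0.38 at the edge (edgeR adjusted p = 0.00287 and 3.66e-08), and -1.53 ± 0.38 and 2.50 ± 0.38 in the center (edgeR adjusted p = 0.000238 and 8.72e-09). CCNB1 was also the gene with the highest FPKM of the list at edge day 6, 35.9, and center day 4, 37.1.

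CDK1, the partner kinase of cyclin B, followed the same course. Its CPM was 6.82, 8.38 and 12.8 in day 0 skin, 33.2, 44.5 and 53.7 at the edge on day 6, and 27.4, 43.6 and 60.7 in the center on day 4. All peak samples were above all day 0 samples, with log2 fold changes of 2.27 ± 0.36 (edgeR adjusted p = 6.29e-08) and 2.26 ± 0.36 (edgeR adjusted p = 2.94e-08). On day 1 the edge had 20.3, 26.5 and 38.1 and the center 1.67, 2.54 and 13.3, and on day 21 both medians were 10.3. CDK1 shares its locus with RHOBTB1 on the other strand.

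CCNE1, cyclin E1, stayed up for longest by number of days. It was above day 0 on 12 of the 14 days at the edge and on 13 in the center. It had 4.01, 5.23 and 8.10 CPM in day 0 skin, 10.1, 12.5 and 15.5 at the edge on day 6, 10.3, 12.6 and 14.8 in the center on day 4, and 6.82, 7.43 and 10.1 in the center on day 21. On day 1 the center, at 7.41, 8.74 and 11.0, was not below day 0 (log2 fold change 0.44 ± 0.21, edgeR adjusted p = 0.0598). On day 21 the log2 fold change in the center was 0.64, past the test, and at the edge 0.03, not past it.

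Nearly all of the 26 genes that act in mitosis were below day 0 in the center on day 1 and above it by days 4 to 6, with a median log2 fold change of 1.83 at the edge on day 6 and 1.98 in the center on day 4. The medians of the 13 DNA synthesis genes were 1.14 and 1.33, and the difference was not tested. Counted over the mitotic kinases, centromere, spindle, mitotic exit and chromosome structure groups, 20 of 26 were above day 0 at the edge on day 1 and 26 on day 6. In the center 25 of 26 were below on day 1, with a median log2 fold change of -1.25, and 25 were above on day 4. The shares of all genes called in these states, given above with the daily counts, were smaller. The gene not called on day 1 was MELK, a kinase of dividing cells, with a log2 fold change of 0.03 ± 0.32.

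PLK1, the polo-like kinase that acts from mitotic entry to exit, had 7.04, 10.2 and 11.3 CPM in day 0 skin. At the edge it had 18.5, 25.3 and 35.2 on day 1 and 38.5, 62.0 and 66.3 on day 6. In the center it had 2.94, 3.78 and 13.0 on day 1 and 33.4, 70.0 and 119 on day 4. Every edge sample and every day 4 center sample was above day 0, and 5 of 6 center samples on day 1 were below it. PLK1 rose most of all members in the center on day 4, by 2.85 ± 0.35 on the log2 scale (edgeR adjusted p = 5.09e-12), with MELK at 2.76 ± 0.33 and CCNB1 next. At the edge on day 6 MELK rose most, by 2.87 ± 0.33 (edgeR adjusted p = 1.67e-12), before PLK1 at 2.59 ± 0.35 and CCNB1. On day 1 at the edge the order was MELK at 2.29 ± 0.33, RRM2 and CDC6. On day 21 PLK1 was back to medians of 10.8 at the edge and 11 in the center.

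BUB1B, a spindle checkpoint kinase, had 10.6, 16.6 and 19.4 CPM in day 0 skin and 1.17, 2.48 and 14.8 in the center on day 1. TTK, the checkpoint kinase upstream of it, fell most of all members there, by 2.37 ± 0.37 on the log2 scale (edgeR adjusted p = 2.40e-08), before BUB1B, which fell by 1.91 ± 0.31, and CENPF, which fell by 1.88 ± 0.32. TTK was above day 0 at the edge on day 6 alone, by 0.89 ± 0.35 (edgeR adjusted p = 0.0273), and on no day in the center. It was also below day 0 in the center on day 2.

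Of the centromere and passenger genes, CENPF had 17.0, 28.1 and 31 CPM in day 0 skin, 3.5, 4.76 and 25.5 in the center on day 1 and 50.4, 70.7 and 112 there on day 4. BIRC5, survivin of the chromosomal passenger complex, had 7.58, 8.07 and 8.91 in day 0 skin and 27.6, 46.3 and 73.0 in the center on day 4. All 5 genes of this group were below day 0 in the center on day 1 and above it on days 3 to 9. In the same states the shares of all genes were those given above with the daily counts. BIRC5 shares its locus with TK1, itself a gene of DNA synthesis, on the other strand.

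All 9 spindle, microtubule and cytokinesis genes were below day 0 in the center on day 1 and above it on day 4. Against this, the shares of all genes on those days are given above with the daily counts. ANLN, a scaffold of the cleavage furrow, had 20.9, 32.0 and 37.5 CPM in day 0 skin, 3.33, 6.89 and 29 in the center on day 1 and 71.3, 94.0 and 134 at the edge on day 6. NUSAP1, which bundles spindle microtubules and had the highest FPKM of the list in day 0 skin, 13.8, changed less. Its log2 fold change was 0.71 at the edge on day 6 and 0.64 in the center on day 4, both past the test. PRC1, of the central spindle, rose by 0.86 ± 0.16 at the edge on day 6 (edgeR adjusted p = 3.91e-06).

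The second row of PRC1, a noncoding RNA with 3347 counts in all samples together, went the opposite way. It was below day 0 on 9 days at the edge and on 13 in the center, and it was the row below day 0 at the edge on each of those 9 days. Since its counts can hold reads of PRC1 itself, its values are uncertain. The second rows of PCNA, a pseudogene with 95 counts, and of RRM2, with 2 counts, were not tested.

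UBE2C and CDC20 drive the ubiquitination that ends mitosis. UBE2C had 10.2, 11.8 and 17.1 CPM in day 0 skin, 2.20, 4.47 and 15.7 in the center on day 1 and 36.3, 66.5 and 105 there on day 4. Both genes were below day 0 in the center on day 1 and above it on days 3 to 9, against the shares of all genes given above. CDC20 shares its locus with ELOVL1 and DLGAP5, of the spindle group, with LGALS3, each on the opposite strand.

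MKI67 encodes Ki-67, the usual tissue marker of cycling cells, and TOP2A the topoisomerase that untangles chromosomes. MKI67 had 30.3, 41.8 and 56.6 CPM in day 0 skin, 52.0, 74.2 and 138 at the edge on day 1 and 11.1, 16.5 and 51.9 in the center on day 1. Its edge values overlapped day 0, as did the single high center sample, and the log2 fold changes were 0.87 ± 0.32 (edgeR adjusted p = 0.0237) and -1.24 ± 0.33 (edgeR adjusted p = 0.000645). TOP2A had 48.9, 62.3 and 65.7 CPM in day 0 skin, 69.8, 107 and 150 at the edge on day 1 and 5.94, 14 and 62.1 in the center. The log2 fold change of TOP2A at the edge on day 1, 0.76 ± 0.33, did not pass (edgeR adjusted p = 0.0551), although no sample overlapped day 0. At the edge on day 6 MKI67 had 81.6, 130 and 147 and TOP2A 121, 176 and 222, and in the center on day 4 they had 84.5, 96.8 and 210 and 177, 199 and 304, all clear of day 0. On day 21 the medians of MKI67 were 45.1 at the edge and 45.6 in the center, and those of TOP2A 51.4 and 71.5.

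The balance of the 2 phases shifted with time. Over the 13 DNA synthesis genes the mean level minus that of the 26 mitosis genes was 0.54 in day 0 skin, 0.79 at the edge on day 1, 0.06 on day 2 and -0.14 on day 6. In the center it was 1.69 on day 1, 0.88 on day 2 and 0.07 on day 3. Of the 6 day 1 center samples, 5 were between 1.55 and 2.34, above all day 0 samples, and replicate 5 was at 0.54. The day 1 edge samples, from 0.23 to 1.23, overlapped day 0, from 0.33 to 0.79. Days 1 and 2 were sampled in different animals, and on day 3, in the animals of day 1, the edge mean was 0.12. These differences hold levels of different genes, so only their change between states can be read.

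**Figure D4:**
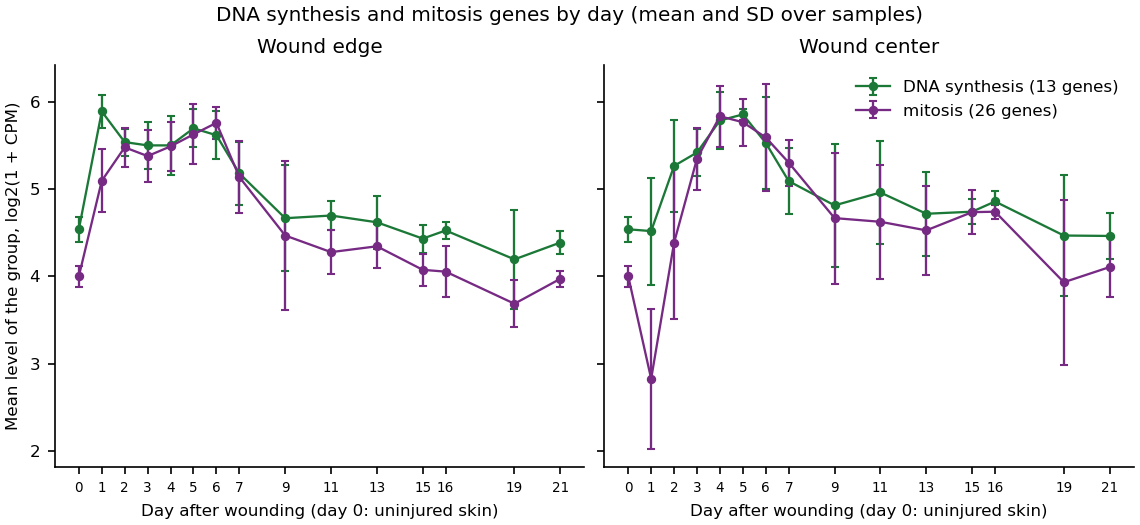
Mean log2(1 + CPM) of 13 DNA synthesis genes (green) and 26 mitosis genes (purple) by day after wounding at the edge (left) and in the center (right), with SD over samples. On day 1 the synthesis genes are at 5.89 at the edge, their highest there, while the mitosis genes are highest on day 6 at 5.76.

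Edge and center were compared day by day with edgeR on the samples of that day. On day 1, 46 of the 48 rows were higher at the edge, against 24% of all genes tested, and none was lower. The largest differences were of RRM2, 3.09 ± 0.44 on the log2 scale (edgeR adjusted p = 0.000271), TTK, 3.05 ± 0.73, and CCNB1, 2.78 ± 0.64, with the edge higher in 6 of 6 wounds for each. The smallest that passed were CCNE1 at 0.63 ± 0.22, GINS2 at 0.72 ± 0.14 and MCM5 at 0.73 ± 0.24, each higher in 5 of 6 wounds. MCM2 and the second PRC1 row were not called. Without replicate 5, 44 rows were higher.

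On day 2, 14 rows were higher at the edge (17.8% of all genes), of which 11 were mitosis genes and 2, RRM2 and TYMS, DNA synthesis genes. The remaining row was FOXM1. TTK at 1.62 ± 0.38, MKI67 at 1.56 ± 0.24 and CENPF at 1.47 ± 0.33 had the largest differences (edgeR adjusted p = 0.00526, 0.00022 and 0.00418), with the edge higher in 6 of 6 wounds. The replication genes did not separate, with a log2 difference of -0.19 ± 0.20 for MCM5 and 0.18 ± 0.12 for PCNA. The count was 8 without replicate 1 or replicate 4, 9 without replicate 2, 12 without the 8 libraries that lay apart, and 20 with the wound as a block.

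**Figure D5:**
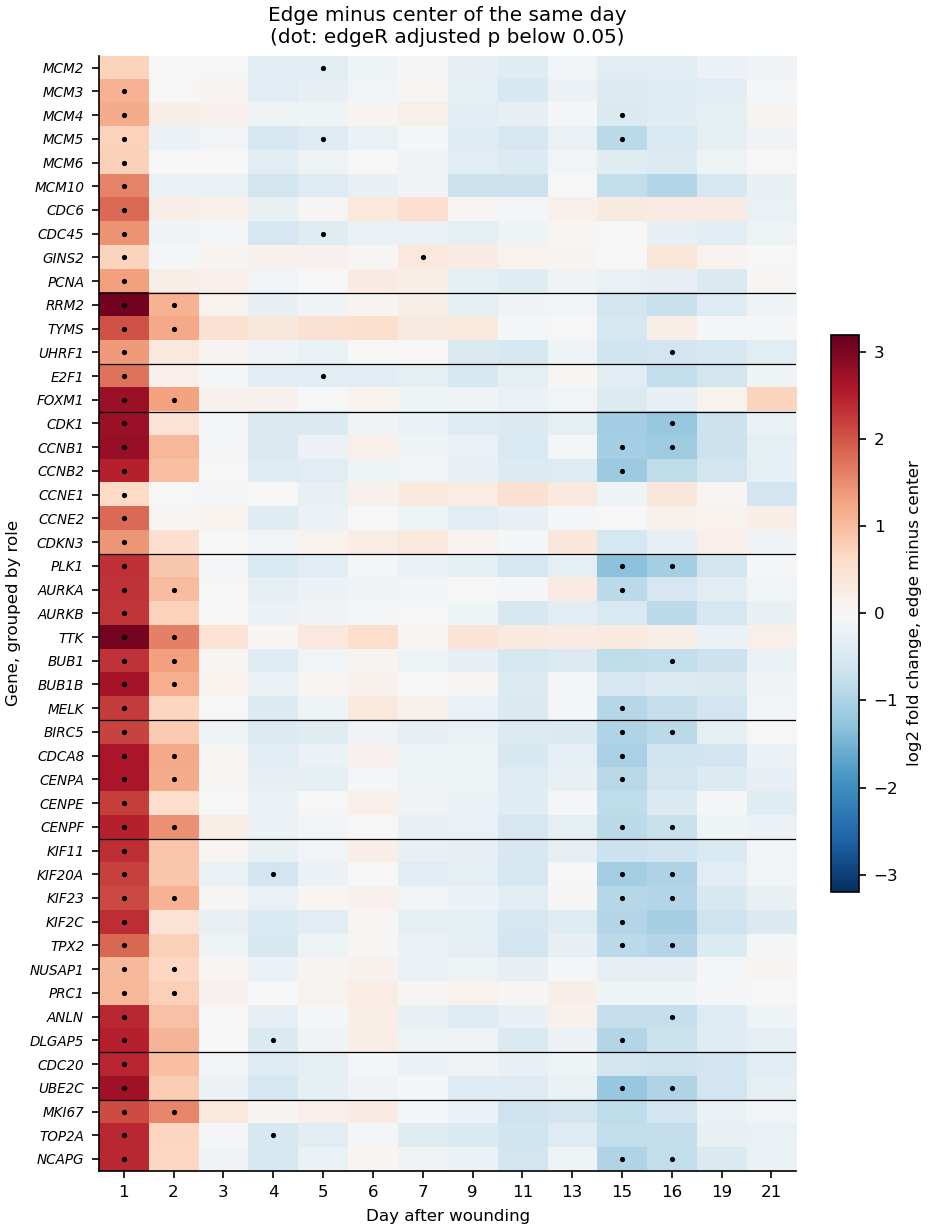
Log2 fold change of edge minus center (color) for each of the 47 genes (vertical axis, in role groups parted by lines) on each day (horizontal axis), with a dot where edgeR's adjusted p was below 0.05. Red on days 1 and 2 marks genes higher at the edge, and pale blue on days 15 and 16 genes higher in the center.

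From day 3 to day 13 the fits without pairing called few rows between the locations. By edgeR no row passed on days 3, 6, 9, 11 and 13 (0%, 10.3%, 17.3%, 20.6% and 16.6% of all genes higher at the edge), with 0 to 5 rows at an unadjusted p below 0.05. DESeq2 called 0 on these days except for 1 row on day 11. On those days the shares of all genes lower at the edge were 0%, 3.92%, 14.3%, 22.9% and 11.8%. On day 4, KIF20A, TOP2A and DLGAP5 were lower at the edge (11.4% of all genes), by 0.47 to 0.61, and on day 5, MCM5, CDC45, E2F1 and MCM2 (16.8%). On day 7 GINS2 was higher at the edge (20.4%). The day 4 count was 0 without replicate 1, 3 or 6, and the day 5 count was 1 to 3 without any 1 replicate. The wound block, which uses the pairing of edge and center in each wound, called 22 rows lower at the edge on day 4 and 13 on day 5, and on day 4 the mean level was lower at the edge in 6 of 6 wounds. The difference of the means was -0.32 ± 0.15 (SD, n = 6 wounds) on day 4 and -0.16 ± 0.17 on day 5.

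On days 15 and 16 the center was higher. There were 18 rows lower at the edge on day 15 (9.81% of all genes) and 13 on day 16 (5.87%), with none higher, and the mean level was lower at the edge in 3 of 3 wounds on both days. PLK1 had 11.3, 11.9 and 12.9 CPM at the edge on day 15 and 21.1, 31.7 and 33.0 in the center. On day 16 it had 13.0, 14.6 and 14.7 at the edge and 26.9, 30.4 and 35.5 in the center. The groups did not overlap on either day, and the log2 differences were -1.31 ± 0.20 and -1.10 ± 0.16 (edgeR adjusted p = 0.0191 and 0.0211).

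CCNB1 on day 15 had 14.9, 18.7 and 18.7 CPM at the edge and 30.9, 32.6 and 41.7 in the center, a log2 difference of -1.08 ± 0.17 (edgeR adjusted p = 0.0196). CDK1 on day 16 had 7.08, 8.97 and 12.9 at the edge and 18.8, 22.1 and 26.9 in the center, a log2 difference of -1.21 ± 0.25 (edgeR adjusted p = 0.0385). Neither gene overlapped between the locations. CCNE1, with a log2 difference of -0.15 ± 0.25 on day 15, and PCNA, at -0.21 ± 0.17, did not pass. The members farthest to the other side were TTK at 0.31 ± 0.26 and CDC6 at 0.29 ± 0.47 on day 15, neither past the test.

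These calls rest on 3 wounds a day. Without replicate 1 they were 5 on day 15 and 1 on day 16, and without replicate 2 or replicate 3 there were 0 on either day. In a fit of all 150 samples there was 1 on day 15 and 0 on day 16, and with the wound block there were 12 and 20. Basal keratinocyte markers of the center varied on these days from 6.79 to 9.40 on day 15 and from 3.98 to 10.01 on day 16, while the mean level of the members lay between 4.31 and 4.66 on both days. At the edge those markers were at 9.10 to 9.25 on day 15, the 9 neutrophil markers at 2.90 to 4.18, and in the center the neutrophil markers at 5.38 to 6.68. Of 10 macrophage and monocyte markers, 6 were lower at the edge on day 15 and 5 on day 16, with median log2 differences of -0.98 and -1.18. Of 10 endothelial markers, 1 was lower at the edge on day 15 and 7 on day 16, with medians of -0.76 and -1.0. Their part in the difference was not tested. On days 19 and 21 edgeR called no row (0% and 0.0684% of all genes higher at the edge), with 0 and 1 rows at an unadjusted p below 0.05 and none by DESeq2.

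Steps from one sampled day to the next within the same 3 animals showed when the genes moved. From day 1 to day 3, 39 rows rose in the center, against 7.04% of all genes, and none fell. CCNB1 rose most, by 3.46 ± 0.40 on the log2 scale (edgeR adjusted p = 3.48e-11), then KIF20A by 3.39 ± 0.36 and CDC20 by 3.18 ± 0.39. MCM2 at 0.19 ± 0.26, GINS2 at 0.29 ± 0.14 and MCM6 at 0.41 ± 0.18 moved least of the representative rows and did not pass. From day 2 to day 4, 31 rows rose in the center (7.72%), with CENPF first at 1.78 ± 0.31, then PLK1 and BUB1.

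At the edge the early steps changed little. From day 1 to day 3, KIF20A, a motor of cytokinesis, rose by 0.97 ± 0.32 (13.6% of all genes rose, edgeR adjusted p = 0.0212) and PCNA fell by 0.69 ± 0.18 (8.03% fell, edgeR adjusted p = 0.00235). No row passed from day 2 to 4, day 3 to 5, day 4 to 6 or day 5 to 7, with 0 to 5 at an unadjusted p below 0.05. The shares of all genes in these steps are not given here, so the lack of calls cannot be read as particular to the members. From day 6 to day 9, 33 rows fell at the edge (6.43%), with ANLN first, which fell by 1.39 ± 0.34 (edgeR adjusted p = 0.00305), then MELK and UBE2C.

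That count was 9 without replicate 6, 13 without replicate 2, 16 without replicate 1, 20 without replicate 5, and 7 when the 2 wounds of an animal were summed. From day 7 to day 11, KIF23, MELK and TPX2 fell at the edge (1.53%), and none did without replicate 1, 2, 4, 5 or 6. In the center no row passed from day 6 to day 9, with 37 of 48 at an unadjusted p below 0.05 and a median log2 change of -0.66. The share of all genes in that step is not given here. PCNA was the single row that fell in the center from day 5 to day 7 (1.71%), by 0.67 ± 0.18. From day 6 to day 9 the center count was 13 without replicate 3 and 5 without replicate 4, and 8 by DESeq2. On these days both replicate numbers are of animal 5, but they were left out of all other states too.

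The locations came together between the first sampled days of animals 1 to 3. Between day 1 and day 3 the edge minus center difference fell in 42 of 48 rows (5.55% of all genes), by 3.01 ± 0.49 for RRM2 (edgeR adjusted p = 4.94e-06), 2.92 ± 0.49 for UBE2C and 2.89 ± 0.52 for CCNB1. The rows not called were MCM2, MCM3, MCM4, MCM5, CCNE1 and the second PRC1 row. Without the libraries that lay apart, which include the 2 libraries of day 3 whose keratinocyte markers go against their labels, the count was 41, and edgeR called no row between edge and center on day 3 with or without them. From day 2 to day 4 NUSAP1 alone passed (0.296%). That count was 0 without replicate 1, without replicate 3 and with the wounds of an animal summed, 2 without replicate 4 or with the animal block, 7 by DESeq2 and 10 without replicate 5. In the other 10 steps no row passed, with 0 or 1 at an unadjusted p below 0.05. Since the shares of all genes in those steps are not given here, this is not a result about the members alone.

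The day of the highest level could be placed only to within a few days. Over all 14 days, 28 of the 47 genes were highest at the edge on day 6 and 12 on day 1, and in the center 28 on day 4 and 18 on day 5. Among animals 1 to 3 the edge had 33 genes highest on day 5 and 14 on day 1, and the center 46 on day 5. Among animals 4 to 6 the edge had 36 on day 6 and 9 on day 2, and the center 46 on day 4. So the center peak fell on the third sampled day of the first set and the second of the other, whose sampled days do not coincide.

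In single animals the edge peaked on day 3 in animal 1, day 5 in animals 2 and 3, day 6 in animals 4 and 5 and day 4 in animal 6. The center peaked on day 5 in animals 1, 2 and 3, on day 4 in animals 4 and 6 and on day 6 in animal 5. So both locations peaked on the same day in 4 animals, the center later in animal 1 and earlier in animal 4. In animal 1 the edge levels of days 3 and 5 were 5.51 and 5.47.

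The peak days of DNA synthesis and mitosis genes at the edge differed in animals 1 to 3 and coincided only in part in animals 4 to 6. Over all days, of the 13 synthesis genes 10 were highest at the edge on day 1, and of the 26 mitosis genes 23 were highest on day 6. In the center 9 of 13 synthesis genes were highest on day 5 and 22 of 26 mitosis genes on day 4, days taken from different animals. Within animals 1 to 3 all 13 and all 26 were highest in the center on day 5, and within animals 4 to 6, 12 of 13 and 26 of 26 on day 4. At the edge within animals 1 to 3, 10 of 13 synthesis genes were highest on day 1 and 25 of 26 mitosis genes on day 5. Within animals 4 to 6, which were not sampled on day 1, 7 of 13 synthesis genes and 24 of 26 mitosis genes were highest on day 6, with 5 synthesis genes on day 2 and 1 on day 4, and the means of both groups were highest on day 6, at 5.61 and 5.76.

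The members moved together over the 29 states. The correlation of each with the mean over the 47, which includes the gene itself, had a median Pearson's r of 0.955 and ran from 0.498 for GINS2 to 0.993, with CCNE1 at 0.685, PCNA at 0.781 and TYMS at 0.785 next lowest. Outside the list the 10 genes most like the mean, of 13105 compared, were CENPN, KIF22, NCAPH, CDCA3, NDC80, KNL1, PCLAF, CKAP2, PTTG1 and ARHGAP11A, with r from 0.985 to 0.992. These are correlations over 29 state means that share animals and libraries, given as a description. Within a state, edge and center of 1 wound deviated to the same side in 50 of 72 wounds.

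Other cell cycle genes were counted in the same comparisons with day 0. Of all genes, 21.7% were above day 0 at the edge on day 1, and 29.7% above and 31% below in the center. Of 33 genes of the replication fork and polymerases, 25 were above day 0 at the edge on day 1, and 7 above and 3 below in the center, both shares under those of all genes, where 26 were above on day 4 (31.7%). Of 15 kinetochore and checkpoint genes, 12 were above at the edge on day 1 and 6 below in the center, the latter near the share of all genes. Among the condensin and cohesin genes 12 of 16 were above at the edge on day 1 and 10 below in the center. SKA1, of the kinetochore, rose by 3.00 ± 0.36 at the edge on day 6 and 3.27 ± 0.36 in the center on day 4, and MYBL2, the transcription factor of the mitotic genes, by 2.16 ± 0.32 at the edge on day 6.

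Upstream regulators are given against 26.8% of all genes above day 0 at the edge on day 6 and 24.4% below, and 31.7% above and 31.3% below in the center on day 4. Of 6 D cyclins and their kinases, CDK4 was above day 0 at the edge on day 6 by 0.54 and CCND3 by 0.46. CCND1 fell by 1.48 ± 0.22 on the log2 scale in the center on day 1, a state whose shares are given in the paragraph before. RBL2, a pocket protein of resting cells, fell by 0.62 ± 0.19 at the edge on day 6 and by 0.80 ± 0.19 in the center on day 4. CDK4, CCND3, CCND1 and RBL2 are named singly, and the counts of their lists against day 0 are not given here. Of 5 CDK inhibitors tested, 3 were above day 0 at the edge on day 6 and none below. In the center on day 4, 2 were above and CDKN2B was below, which is near the shares of all genes for so short a list.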

How the data were processed

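RNA of day 0 skin and of wound edge and center biopsies was sequenced as poly-A enriched, paired-end libraries. The authors deposited a table of raw read counts per gene for all 150 samples, and a table of FPKM, counts divided by gene length and library size, times a factor per sample, also by the authors. Per the authors' methods, reads with adapters or of low quality were removed before alignment and counting. The aligner, the counter, the genome build and the strand setting are not given in the sources used here.

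The members and the gene lists were chosen with earlier results of these data known. Total counts ranged from 13133379 to 24895572, and CPM was computed from them. Counts were tested with edgeR 4.0.16 in R 4.3.3 (filterByExpr at its thresholds of 10 counts per sample and 15 in total, TMM scaling, quasi-likelihood test, Benjamini-Hochberg adjustment over all genes tested, threshold 0.05). Wound states, steps between days and changes of the edge-center difference came from 1 fit of all 150 samples, and edge against center from a fit of each day. The SE of a log2 fold change was its size divided by the square root of the test's F statistic. It therefore holds the spread of the whole fit, not that of the compared groups alone. DESeq2 1.42.0, other scalings and filters, blocks for wound or animal, summed wounds and leaving out each replicate were the alternatives. A replicate was left out by its number, from all states at once in the fit of 150 samples. In the fits of a single day it was left out of that day. Leaving out the 8 libraries that lay apart was added after seeing the data. No pair of the 339 replicate pairs agreed within sampling noise. Edge and center samples of a wound are paired by their labels, and their deviations from the group means correlated in 64 of 72 wounds, with a mean r of 0.259 over 17916 genes. In simulated counts the fit of 150 samples recovered 60% of genes changed 2-fold in a comparison of day 5 edge with day 0, on 17916 genes, and the 3 against 3 fit of day 16 recovered 3%, on 14385 genes. These counts were drawn independently for each sample, with no animal or wound effect.

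Lead genes in the text are MKI67, TOP2A, CDK1, CCNB1, PLK1, MCM5, PCNA, RRM2, CCNE1, E2F1, FOXM1 and UHRF1, with the 3 largest and 3 smallest changes of a comparison and the genes of largest mean CPM in each role group. Levels of other members, and comparisons, beyond these were named for a count of 5 or fewer or as exceptions after their values were seen.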

Additional observations from a re-analysis of the deposited data

Results flagged for a closer look

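In 93 groups of 6 samples, the mean level and the lead genes were screened for a sample far from the others, and 10 groups held one, where chance gives about 1 in 20 groups. Values are log2(1 + CPM). In the center on day 1, replicate 5 was the highest for MKI67 at 5.73 against 3.59 to 4.30 in the others, for CDK1 at 3.83 against 1.42 to 2.19, for CCNB1 at 4.55 against 1.38 to 2.14 and for PLK1 at 3.80 against 1.98 to 2.48. The same sample had the highest keratinocyte markers of its group, and their part in its levels was not tested.

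In the center on day 6, replicate 5 had the lowest mean level of the members, 4.29 against 5.29 to 5.82 in the others. Its mean level of muscle markers was 12.02, against 0.63 to 3.19 in the others, and the part of the muscle in the low level was not tested. At the edge on day 6, replicate 5 was lowest for MKI67 at 6.37 against 6.96 to 7.21, for PLK1 at 5.31 against 5.92 to 6.07 and for E2F1 at 3.98 against 4.99 to 5.16. In day 0 skin, replicate 6 was highest for CDK1 at 3.78 against 2.97 to 3.27, and in the center on day 5, replicate 5 was lowest for FOXM1 at 2.29 against 2.89 to 3.21.

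The edge and the center moved differently by the interaction test of edgeR in 42 of 48 rows from day 1 to day 3 and in 1, NUSAP1, from day 2 to day 4. The second count was 0 without replicate 1, without replicate 3 and with the wounds of an animal summed.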

How the results depend on the processing

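Counts are of member rows past edgeR's threshold, summed over the days or steps. Rows lower at the edge than in the center numbered 38 over 14 days, 62 by DESeq2, 1 in a fit of all 150 samples, 69 with the wound as replicate block and 2 to 37 without 1 replicate. The sum of edge rows below day 0 was 9, with 15 by library size alone and 0 to 11 without 1 replicate. Over the 12 steps, rows that rose at the edge numbered 1, with 0 when the wounds of an animal were summed and 0 to 1 without 1 replicate. Rows that fell at the edge numbered 37, with 57 by library size alone, 9 when wounds were summed and 10 to 42 without 1 replicate. Rows that fell in the center numbered 1, with 12 by DESeq2, 10 with the animal block, 19 by library size alone and 0 to 13 without 1 replicate. The mean level peaked at the edge on day 6, or day 5 by the median of the samples, and on days 5 to 6 without 1 replicate. In the center it peaked on day 4, but on day 5 by TMM-scaled CPM, by the authors' FPKM, by the median over members and by the median of the samples, and on days 4 to 5 without 1 replicate. The cause of these shifts was not tested, except that leaving out a replicate leaves fewer samples. No result changed direction in any alternative run. Of the tests of single lead genes under an alternative, 1625 kept their side of the threshold, 52 lost it and 15 gained it. Of the counts per comparison, 214 were classed as moved, at a ratio of 1.5, and 1710 as the same. Of the summed counts and peak days, 34 were classed as moved and 142 as the same. On simulated counts, edgeR recovered 48% of genes changed 4-fold at 3 against 3 samples (day 16, 14385 genes) and 84% at 6 against 6 (day 5, 14409 genes). Of the calls on these counts, 7.27% were false by edgeR and 35.1% by DESeq2 at 3 against 3. At 6 against 6 they were 3.21% and 16.8%. The simulated samples were drawn independently, with edgeR's estimates of the spread and no animal or wound effect. These rates therefore do not measure false calls among wounds that share an animal, and they do not rank the 2 methods on the real counts.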
